A study of Ictalurus punctatus and Ictalurus punctatus x Ictalurus furcatus with 18 samples.

Results

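The 200 liver transcripts of catfish that varied most between replicate tanks are described here, out of 35308 transcripts that could be ranked and 144746 in the count table. Raw counts were converted to CPM, the count divided by the library's reads on transcripts and scaled to a total of 1000000. The members were chosen by their spread: transcripts with at least 1 CPM in all 18 libraries were ranked by the SD of log2 CPM among the 3 tanks of a group, taking the median over 5 groups, and the top 200 taken. The SDs below, and the sets of transcripts that varied together, therefore describe the choice and carry no test. The tests concern differences between temperatures and between catfish types, which the ranking did not use. The 1 CPM minimum did leave out transcripts missing from any library. The spread in DSxDS Low, which entered the 1 CPM minimum but not the ranking, is given as a description.

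The study compared hepatic mRNA of fingerling catfish of 3 types, grown for 6 weeks under daily cycling water temperature. High tanks cycled between 32 and 36 °C and Low tanks between 27 and 31 °C. Each library was RNA pooled from 3 fish of 1 tank, and each combination of type and temperature had 3 libraries. DS hybrid fish, crosses of Delta Select channel catfish (Ictalurus punctatus) with blue catfish (Ictalurus furcatus), were in tanks H2, H6 and H8 at High and L1, L4 and L7 at Low. DSxDS fish, the Delta Select strain of channel catfish, were in tanks H3, H5 and H9 at High and L3, L5 and L8 at Low. RRxRR fish, the Red River strain of channel catfish, were in tanks H1, H4 and H7 at High and L2, L6 and L9 at Low. Pooling hides which of the 3 fish carried a level, and no group lacked the daily cycle or was sampled at another time.

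The liver makes most plasma proteins, stores and releases fuel, clears foreign compounds and mounts the acute-phase response. Feeding, infection, maturation and the cells taken with a piece of tissue are all known to change its RNA. Transcripts with such responses can differ between tanks kept alike, and genes under common control are known to move together. The identifiers here carry no gene name, since none of the 144746 matched the reference gene table, so which of these responses a transcript belongs to was not determined. Liver markers could not be looked up for the same reason.

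Libraries held 36242058 to 76146359 reads on transcripts, and the least abundant member had 37 reads in its lowest library, so counting error was small. The members took 0.291% (L5) to 1.04% (H9) of a library's reads. Libraries L3 and L5 stood apart within DSxDS Low. Of 18 transcripts with at least 5 CPM in every DS hybrid library and under 0.1 CPM in every RRxRR library, L3 and L5 each had 17 at 1 CPM or more, while L8 had 0 and the DSxDS High libraries 0 to 3. L3 and L5 were not alike in level. The median of the 18 transcripts was 13.5 CPM in L3 and 4.83 CPM in L5, against 13.0 to 15.9 CPM in DS hybrid libraries. L3 and L5 were not used to rank the members, although the minimum of 1 CPM applied to them too. They enter the temperature contrasts. Counts of members without them are given for the contrasts within a type. For the averaged effect, results without them are given only for some sets and named transcripts. Without L3 and L5, DSxDS Low is the single library L8, assumed to vary like the other groups.

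The median SD over the 5 groups ran from 0.650 to 4.55 log2 units among the members, with a median of 0.748 against 0.181 for all ranked transcripts. Counting error alone would give a median SD of 0.0832 for the members and 0.0960 for all ranked transcripts. At the edge of the choice, k50:2731421 and k86:844746 were the last inside, both at 0.650. The first outside were k62:1380030 and k90:1934170, both at 0.648, so the list ended in a continuous range.

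Ranking by the median of 5 groups asks for a wide spread in at least 3 of them. More than a 2-fold range between the highest and the lowest tank was found for 143 members in DS hybrid High, 129 in DS hybrid Low, 166 in DSxDS High, 160 in RRxRR High and 121 in RRxRR Low. A range over 4-fold was found for 38, 50, 75, 45 and 25 members in the same order of groups. Over all ranked transcripts, DSxDS High likewise had the largest share of these 5 groups past both sizes (4.81% and 0.513%). RRxRR Low had the smallest (3.48% and 0.218%). DSxDS Low, not used in the ranking, had 11.9% and 1.44%. Counting DSxDS Low too, 41 members passed 2-fold in 3 groups, 88 in 4, 55 in 5 and 16 in all 6.

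The members were mostly of moderate level. Their mean CPM over the 18 libraries had a median of 10.2 (quartiles 5.35 and 21.2), against 5.36 for all ranked transcripts (quartiles 2.97 and 12.5). A transcript that varies widely and keeps 1 CPM in every library must average well above that minimum. The choice itself thus favoured higher means, and nothing is drawn from this difference. Only 14 members averaged over 100 CPM, and the highest averaged 255 CPM. Identifiers begin with a number from 50 to 94, in the form of an assembly's k-mer size, and 48 members (24%) had 50 to 58, against 17.5% of all ranked transcripts. Among the 20 members of largest spread, 14 (70%) did; this count was made after the identifiers were seen.

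**Figure D1:**
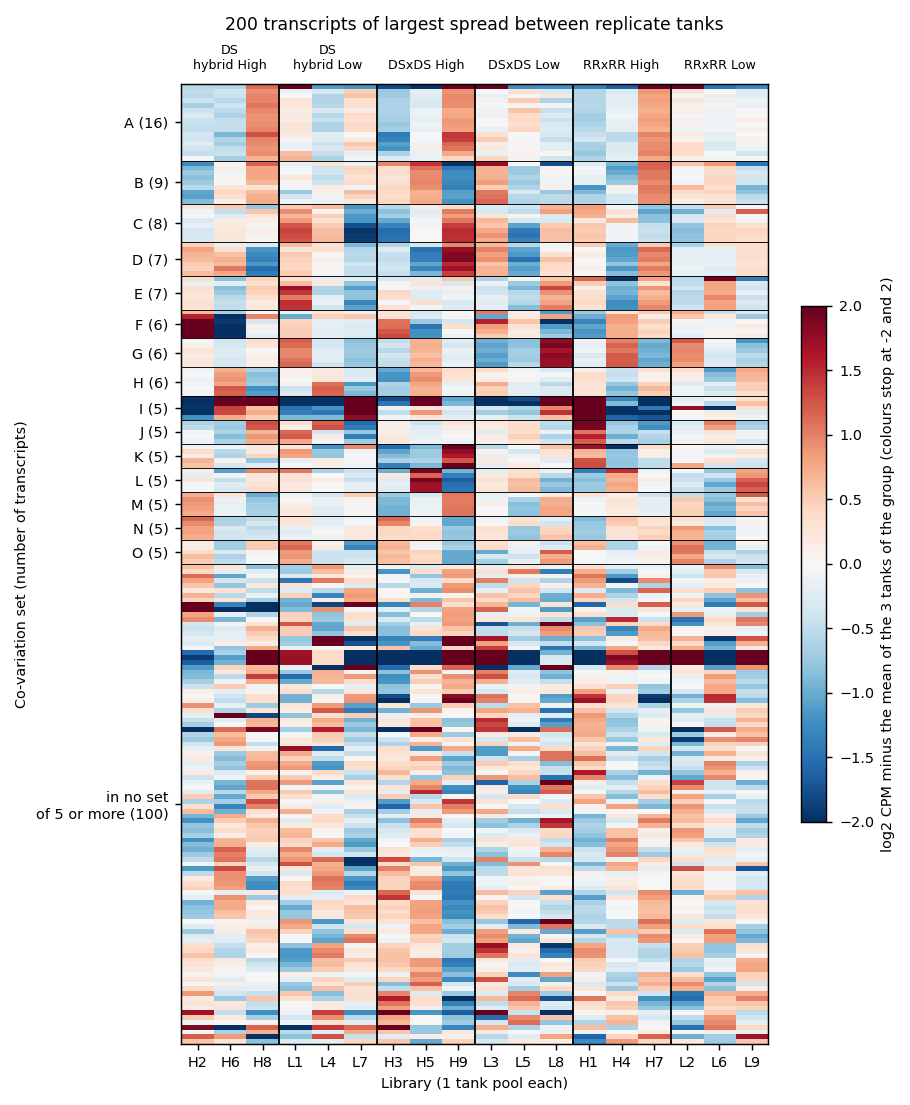
Level of each of the 200 transcripts (rows) in each library (columns), as log2 CPM minus the mean of the 3 tanks of its group, with colours stopping at -2 and 2. Rows are ordered by co-variation set, A to O, with the 100 transcripts in no set of 5 or more below; different sets peak in different tanks.

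The 3 members of largest spread were high in the same tanks. In these bulk samples, more cells of a type and more RNA per cell cannot be told apart. k58:1824543, the first in rank, had 1.48, 2.55 and 44.0 CPM in DS hybrid High tanks H2, H6 and H8, and 273, 109 and 18.8 CPM in DS hybrid Low tanks L1, L4 and L7. It had 5.28, 6.68 and 1387 CPM in DSxDS High tanks H3, H5 and H9, and 391, 2.19 and 20.9 CPM in DSxDS Low tanks L3, L5 and L8. In RRxRR it had 1.18, 172 and 512 CPM in High tanks H1, H4 and H7, and 547, 1.41 and 863 CPM in Low tanks L2, L6 and L9. Tanks near 1 CPM and tanks with 512 CPM or more occurred within the same group, and the levels overlapped across every type and both temperatures.

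The next in rank, k58:812950 and k58:1824544, followed it. In H9 they had 1354 and 1379 CPM, and in L9 851 and 870 CPM. Correlations of the centred profiles among these 3 were 0.995 to 0.999 over 15 libraries. The level of k58:1824543 was a median of 1.01 times that of k58:812950 over the 18 libraries, with a range of 0.654 to 1.15. That of k58:812950 was a median of 0.949 times that of k58:1824544, with a range of 0.185 to 0.995, so the 3 differed from each other mainly in tanks where all were low. k58:1824543 and k58:1824544 have adjacent identifier numbers, as did 2 other pairs of members, and all 3 such pairs correlated at 0.984 to 0.997. Adjacent identifiers may share sequence and reads, so they cannot be counted as separate observations. The same may hold for other members, since 36 pairs of members in all correlated above 0.99. Counts of members below are counts of identifiers, and how many genes they stand for was not determined.

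**Figure D2:**
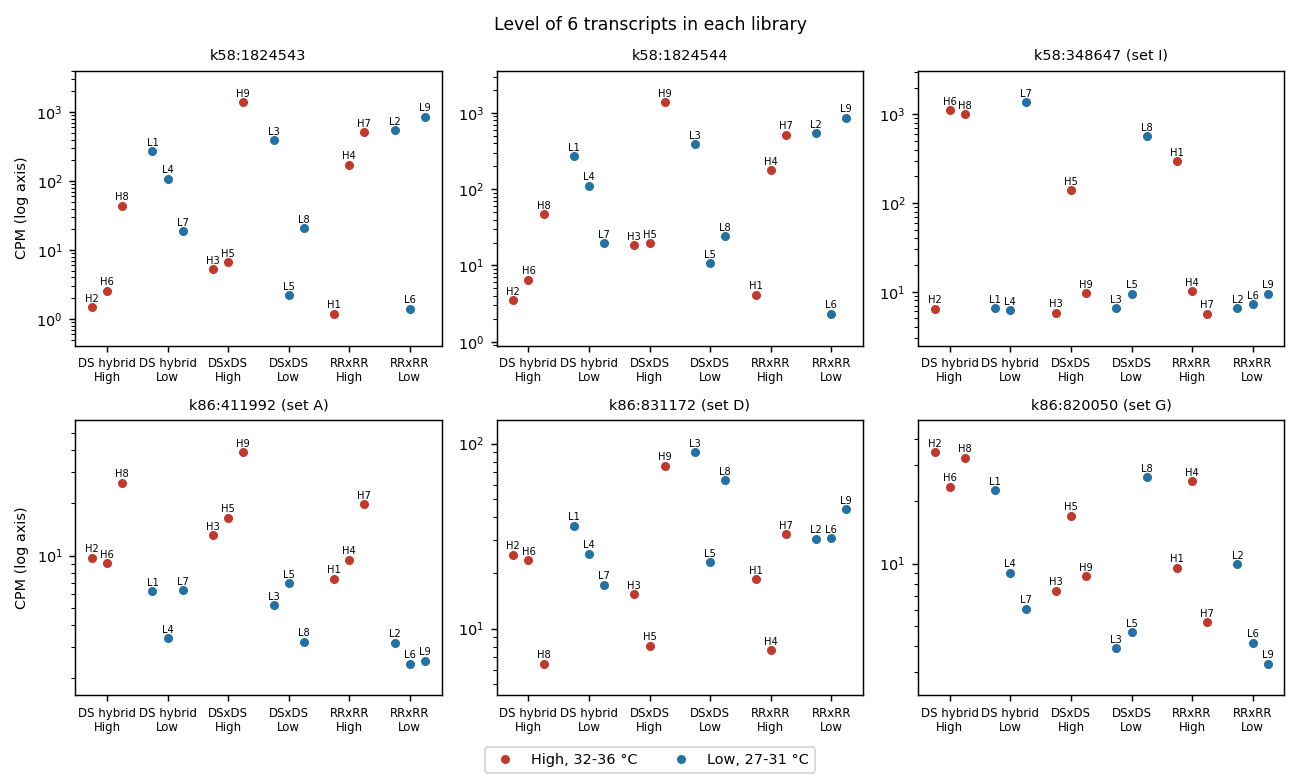
Level in CPM (log axis) of 6 transcripts in each library, by group; red points are High tanks and blue points Low tanks. k58:1824543 and k58:1824544 share their high tanks, among them H9, H7, L2, L3 and L9, while k58:348647 is above 100 CPM in H6, H8, L7, H5, L8 and H1.

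Co-variation was sought after subtracting each group's mean from log2 CPM in the 15 libraries of the 5 groups. Members were joined by average linkage on 1 minus Pearson's correlation, stopping at 0.3. Correlations between members were spread around 0: over 19900 pairs the median was 0.0181, with 5% below -0.537 and 5% above 0.601, and 220 pairs (1.11%) exceeded 0.9. The members were thus not 1 block. They fell into 15 sets of at least 5 transcripts, lettered A to O by size, which held 100 members. Of the other 100, 31 stood alone, 24 formed 12 pairs, 21 formed 7 triples (the leading 3 among them) and 24 formed 6 groups of 4. All these profiles share the same 15 libraries and their depth.

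How far a set moved as a whole was measured by the variance of its mean between tanks as a percentage of its members' mean variance. It is 100% if all members shift equally and 100 divided by the number of members if they vary independently. In DSxDS Low, whose levels had no part in forming the sets, this was 99.6% for set G (6 members), 93.4% for D (7), 87.7% for E (7), 84.0% for J (5), 83.2% for L and for M (5 each) and 74.4% for H (6). It was 73.2% for set B (9 members), 65.3% for I (5), 59.5% for C (8) and 45.9% for F (6). The lowest were A with 20.5% (16 members, 6.25% if independent), and N, O and K with 27.2%, 26.5% and 22.7% (5 members each, 20% if independent). Members of wide spread weigh most in this measure. In set A, k50:2878665 had an SD of 2.11 log2 units in DSxDS Low, against 0.563 for k86:411992, the member nearest to the set mean. The percentage without k50:2878665 was not computed. Over all 200 members together the percentage was 4.38%, against 3.36% over all ranked transcripts. K, N and O came close to the value for independent members. By geometric mean, L8 lay above both L3 and L5 in sets E, G, I, K, M, N and O, and below both in A, F, H, J and L. The gap ranged widely, with 47.5 CPM in L8 against 3.84 and 4.18 CPM in L3 and L5 for I, and 36.4 against 36.1 and 25.5 CPM for N. In B, C and D, L8 lay between them. L8 was also apart from L3 and L5 in the hybrid-restricted transcripts, and the part of that split in these percentages was not tested.

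**Figure D3:**
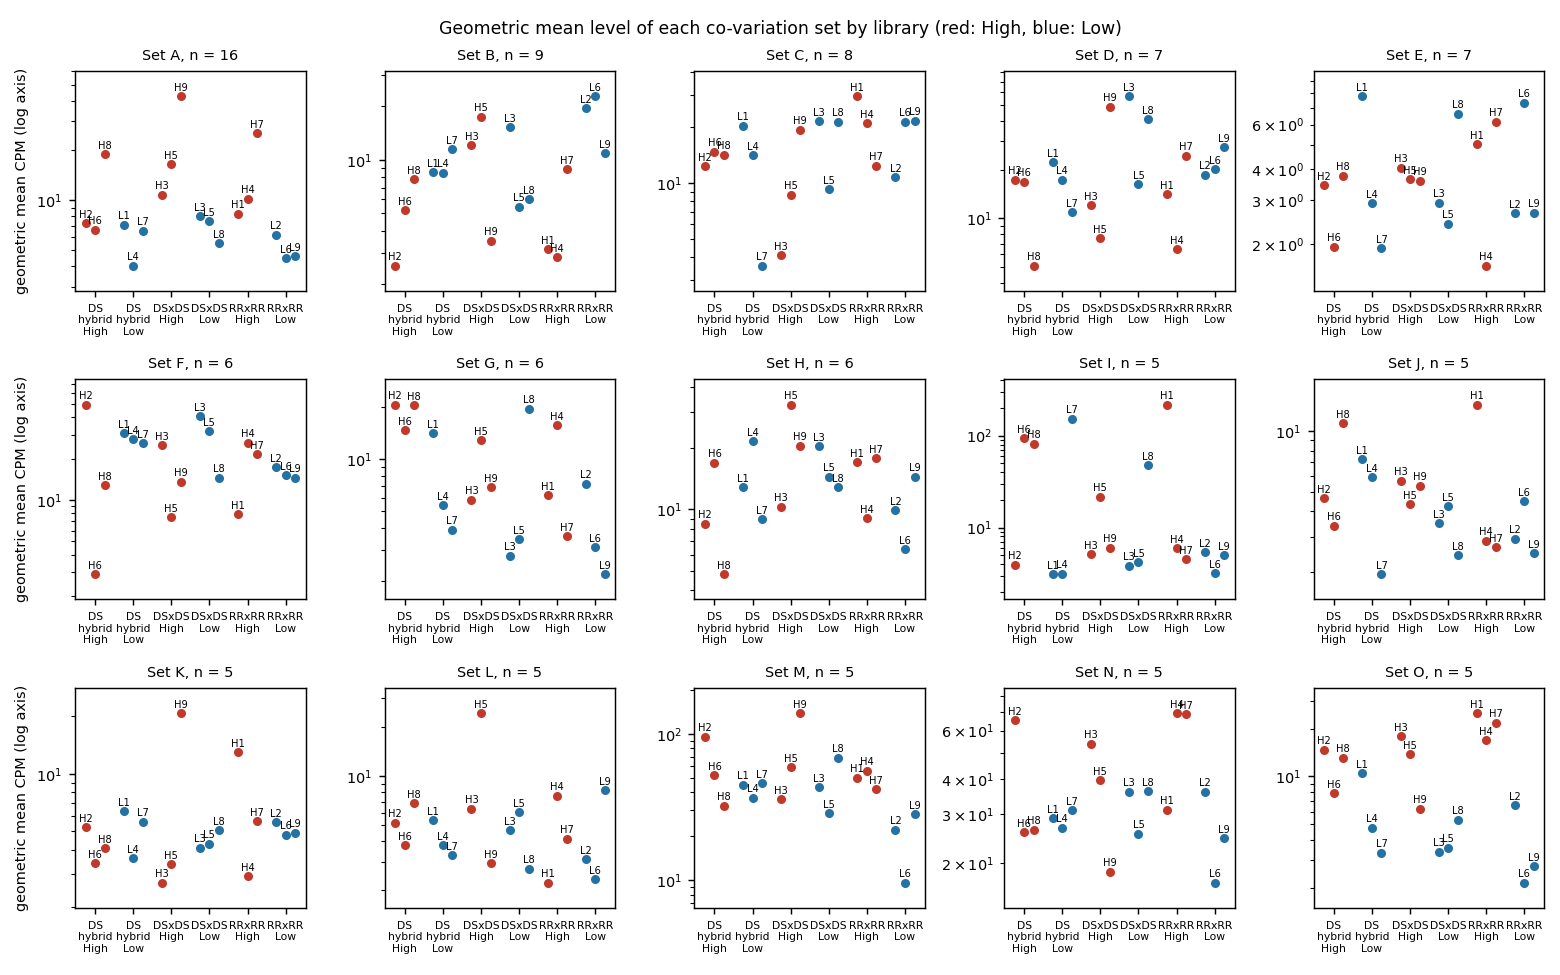
Geometric mean level in CPM (log axis) of the members of each co-variation set, by library and group; red points are High tanks and blue points Low tanks. Set A is highest in H9, H7 and H8, set I in H1, L7, H6 and H8, and set G in H2, H8 and L8.

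Set A, the largest with 16 members, was raised in 1 tank of each High group. Its geometric mean was 7.27, 6.66 and 19.0 CPM in H2, H6 and H8 of DS hybrid High, and 7.12, 4.04 and 6.58 CPM in L1, L4 and L7 of DS hybrid Low. It was 10.8, 16.6 and 42.6 CPM in H3, H5 and H9 of DSxDS High, and 8.0, 7.48 and 5.52 CPM in L3, L5 and L8 of DSxDS Low. In RRxRR it was 8.29, 10.3 and 25.3 CPM in H1, H4 and H7 at High, and 6.22, 4.47 and 4.59 CPM in L2, L6 and L9 at Low. All 16 members were above their group mean in H7, H8 and H9, which carry the highest codes of the High tanks. Each run of 3 consecutive codes held 1 tank of every type, and H7 to H9 was 1 such run. The labels do not say what the codes order or whether the tanks of a run were handled together. The spread within the Low groups was smaller, 1.39-fold to 1.76-fold between the highest and lowest tank, against 2.85-fold to 3.93-fold within the High groups. Most of the groups used in the ranking were High, so a transcript could be chosen by its spread in the High groups alone. Nothing is drawn from this difference.

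The transcript nearest to the mean of set A was k86:411992, with a correlation of 0.989 over 15 libraries. It had 9.73, 9.04 and 26.0 CPM in DS hybrid High (H2, H6, H8), against 6.26, 3.36 and 6.36 CPM in DS hybrid Low (L1, L4, L7). In DSxDS it had 13.0, 16.4 and 39.0 CPM at High (H3, H5, H9), against 5.2, 6.98 and 3.22 CPM at Low (L3, L5, L8). RRxRR tanks had 7.37, 9.47 and 19.7 CPM at High (H1, H4, H7), against 3.17, 2.42 and 2.51 CPM at Low (L2, L6, L9). High and Low tanks did not overlap in any of the 3 types, although the High tanks differed among themselves by more than 2-fold in each. Next nearest was k86:522593 (0.977), with 34.5 CPM in H9, 18.4 CPM in H7 and 14.5 CPM in H8.

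One member of set A had another pattern. k50:2878665, sixth in rank, had 1361 CPM in H9, 520 CPM in H7, 570 CPM in L2, 417 CPM in L3 and 298 CPM in L1. Its level in the other 13 libraries was 19.8 to 64.6 CPM. Those 5 tanks were also among the high ones of the leading 3 transcripts, which in addition had over 100 CPM in H4, L4 and L9, where k50:2878665 had 21.6, 28.2 and 35.4 CPM.

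Set I had the widest range between tanks of all sets in DS hybrid High, DS hybrid Low, DSxDS Low and RRxRR High. In DSxDS High its range was 4.26-fold, against 8.28-fold for set L. The 2 members nearest to its mean split the tanks into high and low. k58:348647 had 6.47, 1108 and 1012 CPM in DS hybrid High (H2, H6, H8), and 6.5, 6.16 and 1366 CPM in DS hybrid Low (L1, L4, L7). In DSxDS it had 5.83, 140 and 9.60 CPM at High (H3, H5, H9), and 6.55, 9.49 and 571 CPM at Low (L3, L5, L8). In RRxRR it had 296, 10.2 and 5.63 CPM at High (H1, H4, H7), and 6.54, 7.23 and 9.51 CPM at Low (L2, L6, L9). It was above 100 CPM in 6 tanks and at or below 10.2 CPM in the other 12, with no tank between. k54:2646787 followed it, with 1162 CPM in L7, 1006 CPM in H8, 573 CPM in H6, 264 CPM in L8, 178 CPM in H1 and 72.2 CPM in H5. All 5 members of set I were above their group mean in these 6 tanks. RRxRR Low held none of the 6, and the geometric mean of the set there differed by 1.70-fold between tanks, against 48.1-fold in RRxRR High. Single members could differ more there: k58:1843429u had 16.6, 1.21 and 6.02 CPM in L2, L6 and L9. Its level in L2 was above that in H8 (13.7 CPM) and H5 (12.7 CPM), so it did not split the tanks in the same way.

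Set G was the tightest. Its 6 members had pairwise correlations of 0.947 to 0.994. k86:820050 had 34.5, 23.5 and 32.5 CPM in DS hybrid High (H2, H6, H8), and 22.6, 9.03 and 6.06 CPM in DS hybrid Low (L1, L4, L7). In DSxDS it had 7.41, 17.0 and 8.71 CPM at High (H3, H5, H9), and 3.91, 4.68 and 26.1 CPM at Low (L3, L5, L8). RRxRR tanks had 9.56, 25 and 5.21 CPM at High (H1, H4, H7), and 9.91, 4.15 and 3.29 CPM at Low (L2, L6, L9). L8, L1, H5, H4 and L2 were the high tanks of their groups, and L8 was high although DSxDS Low was not used to form the set. L8 also differed from L3 and L5 in the hybrid-restricted transcripts, and the part of that in its level here was not tested. Its level relative to k86:825247, another member of the set, stayed within 0.902 to 1.28 over the 18 libraries. k58:1823748 had the same order of tanks within DSxDS Low, with 2.62, 3.08 and 20.1 CPM in L3, L5 and L8.

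Set D peaked in H9 and L3. k86:831172 had 25.1, 23.5 and 6.47 CPM in DS hybrid High (H2, H6, H8), and 36.0, 25.4 and 17.3 CPM in DS hybrid Low (L1, L4, L7). In DSxDS it had 15.3, 8.09 and 76.2 CPM at High (H3, H5, H9), and 90, 22.9 and 63.5 CPM at Low (L3, L5, L8). In RRxRR it had 18.5, 7.67 and 32.5 CPM at High (H1, H4, H7), and 30.7, 30.8 and 44.3 CPM at Low (L2, L6, L9). H8, H5 and H4 were the low tanks of the High groups. k82:997547, the next nearest to the set mean, had 57.3 CPM in H9 and 52.2 CPM in L3, its highest 2 tanks as well.

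Set C held the closest pair of all. The correlation between k94:1383160 and k82:1071881 was 0.9996 over 15 libraries, with k94:1383160 at 0.102 to 0.133 times the level of k82:1071881 in the 18 libraries. k94:1383160 had 45.2, 28.0 and 4.83 CPM in L1, L4 and L7, and 4.62, 13.1 and 36.3 CPM in H3, H5 and H9. L7 and H3 were the low tanks. In DS hybrid High the set hardly moved, with k94:924887 at 11.4, 14.7 and 12.7 CPM in H2, H6 and H8.

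Set B ran against set M (correlation of set means -0.773 over 15 libraries), the most opposed of 105 pairs of sets. H9 was the lowest DSxDS High tank for B, whose geometric mean there was 3.52 CPM against 17.5 CPM in H5, and the highest for M, with 138 CPM against 35.9 CPM in H3. H2 was likewise the lowest DS hybrid High tank for B (2.55 CPM) and the highest for M (95.3 CPM). H7 in RRxRR High and L6 in RRxRR Low were highest for B and lowest for M. The opposition did not hold in every group. In DS hybrid Low, tanks L1, L4 and L7 had 8.52, 8.47 and 11.5 CPM for B. M had 45.0, 36.6 and 46.0 CPM there, the same order of tanks. In DSxDS Low, not used to form the sets, L5 was lowest for both (5.46 and 28.7 CPM). Within B, k66:1862244 and k58:1852436 had 2.61 and 5.43 CPM in H9 and 10.2 and 18.9 CPM in H5. k94:1394718 and k74:1451521, which stand for M, correlated at 0.994. k94:1394718 had 134 CPM in H9, 90.9 CPM in H2 and 8.96 CPM in L6, its lowest tank.

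The remaining sets each turned on a few tanks. Set F was lowest in H6, where k94:1391942 had 3.35 CPM against 98.7 CPM in H2 of the same group, and k86:772609 had 1.63 CPM against 92.0 CPM. F and I were opposed, with a correlation of their means of -0.670. Set E was highest in L1 and L6, where k74:873319 had 11.1 and 9.47 CPM, and its mean varied by 1.124-fold among the DSxDS High tanks. Set H was highest in H5, where k66:1842028 had 14.3 CPM, and lowest in H8, where it had 1.37 CPM. Set J was highest in H1 and H8, where k78:1294494 had 10.1 and 8.69 CPM. Set K was highest in H9 and H1, where k62:2082063 had 107 and 78.8 CPM, and it did not hold together without H9, when at most 2 of its 5 members stayed in 1 set. Set L was highest in H5, where k82:1069849 had 28.4 CPM against 3.21 CPM in H9. Set N was highest in H4, H7 and H2 by its mean, and k86:785168 had 29.7, 31.9 and 50.4 CPM there.

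How firmly the sets held was checked by forming them again in 19 ways, with another scaling, rank correlations, another linkage or limit, and without each library in turn. The wider limit, 0.5, can only merge sets, so every set stayed whole there by construction. Sets G and I had all members together in all 19. L, M and N did in 18, B in 16, H and J in 15, C in 14, D in 13 and O in 12. Set A did in 9, with at least 13 of its 16 members together in the others. F did in 7 and E and K in 6. Some sets depended on a single tank. The fewest members together were 3 of 5 in N without H9, 3 of 6 in H and 3 of 5 in O without H6. They were 3 of 5 in J without H1, 4 of 6 in F without H2 and 5 of 7 in E without L6. With any 1 tank left out, A kept at least 15 of 16, B 8 of 9, C 7 of 8, D 6 of 7, and L and M 4 of 5 each.

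The extreme tank differed between members. In each group, the tank farthest from the middle of the 3 was noted for every member. In DSxDS High it was H9 for 106 of 200 members (53%), against 46.6% of all ranked transcripts. It was the high extreme for 52 of them and the low extreme for 54. In DSxDS Low it was L8 for 93 members (46.5%), against 41.7% of all ranked transcripts, with 46 high and 47 low. In RRxRR the most frequent tank was H1 at High (37.5% of members, 37.9% of all ranked) and L6 at Low (38% and 40.5%), near the background. In DS hybrid it was H8 at High (37% and 34.8%) and L7 at Low (38% and 29.95%), although L1 was the most frequent over all ranked at Low, with 40.2%. H9 also had the largest share of reads on the members, at 10389 CPM in all. Much of that came from few identifiers. k58:1824543, k58:812950, k58:1824544 and k50:2878665 had 1387, 1354, 1379 and 1361 CPM there.

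Spread in DSxDS Low, the group left out of the ranking, was again wider for the members. Their median SD there was 0.701 log2 units (quartiles 0.388 and 1.04), against 0.243 for all ranked transcripts. The 90th percentile of all ranked transcripts was 0.559, and 126 members (63%) lay above it, while 22 members lay under the median of all. A range over 2-fold was found for 127 members (63.5%), against 11.9% of all ranked transcripts. DSxDS Low had the widest spread of the 6 groups over all ranked transcripts, and it was the group with L3 and L5 on one side of the hybrid-restricted transcripts and L8 on the other; the part of this in the members' spread was not tested.

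**Figure D4:**
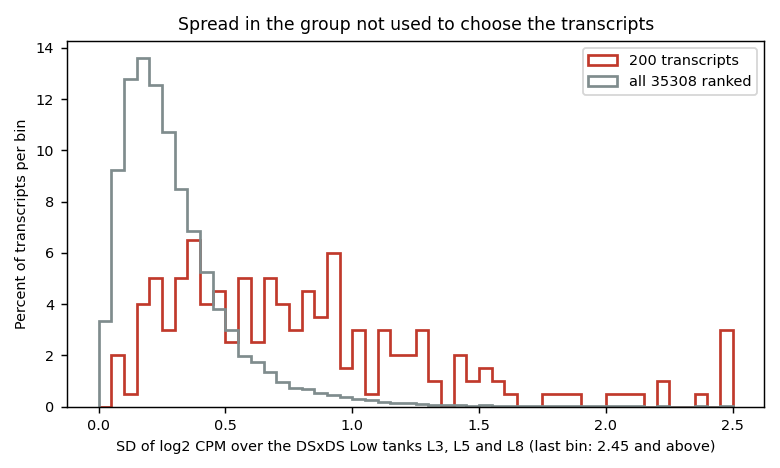
SD of log2 CPM over the DSxDS Low tanks L3, L5 and L8, which had no part in the ranking, for the 200 transcripts and for all 35308 ranked, as percent of transcripts per bin. The median is 0.701 for the 200 transcripts and 0.243 for all ranked.

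The same was done with each of the 5 groups in turn, ranking on the other 4 and taking 200 transcripts with at least 1 CPM in all 18; this was added after seeing the data. The median SD in the group left out was 0.499 in DS hybrid High (all ranked 0.175), 0.458 in DS hybrid Low (0.193) and 0.623 in DSxDS High (0.176). It was 0.547 in RRxRR High (0.173) and 0.418 in RRxRR Low (0.187). In each group 53.5% to 73% of the transcripts so chosen lay above the 90th percentile of all ranked. Between 128 and 143 of them were also among the 200 described here.

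Temperature and type were tested for 96799 transcripts with edgeR's quasi-likelihood test, with Benjamini-Hochberg adjusted p under 0.05 called. All 200 members entered. Only 35308 transcripts had the members' minimum of 1 CPM in all 18 libraries. Shares over all transcripts tested therefore include transcripts of lower level, and are not matched to the members in level. Transcripts missing from a type or a temperature could not be members, but can be counted in these shares. The wide spread that chose the members also widens their errors: the median SE of the averaged temperature effect was 0.35 for the members and 0.17 for all transcripts tested. A low count of calls therefore says little about the size of the effects. Named beyond the sets are the called members of largest change whose log2 CPM averaged at least 3.

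Averaged over the 3 types, 32 of the 200 members (16%) were called between High and Low, against 20.2% of all transcripts tested. Of these 20 rose at High and 12 fell, against 10.5% and 9.75% of all transcripts. The members' share was below the background. Their median absolute log2 fold change was 0.51, against 0.25 for all transcripts tested, with median SEs of 0.35 and 0.17. Wide spread between tanks enlarges absolute changes by itself, so a stronger response of the members cannot be read from this.

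Set A made up 11 of the 20 members that rose. Their log2 fold changes were 1.49 to 2.68, and the same 11 were called under each of 25 alternative settings. The 5 other members of the set had -0.19 to 0.55 and were not called. k86:583648 had the largest change, with 19.9, 12.4 and 32.3 CPM in DS hybrid High (H2, H6, H8), against 10.6, 4.30 and 6.42 CPM in DS hybrid Low (L1, L4, L7). In DSxDS it had 60.0, 65.3 and 98.1 CPM at High (H3, H5, H9), against 15, 10.6 and 8.54 CPM at Low (L3, L5, L8). RRxRR tanks had 39.2, 52.9 and 102 CPM at High (H1, H4, H7), against 4.77, 4.20 and 4.28 CPM at Low (L2, L6, L9). Every High tank was above every Low tank of the same type. Its log2 fold change was 2.68 ± 0.25 (SE, adjusted p = 2.4e-06), and that of k86:411992 was 1.89 ± 0.31 (adjusted p = 0.0007).

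All 5 members of set O rose too, by log2 fold changes of 1.42 to 1.80, and 3 of them were called without L3 and L5. k90:1947153 had 23.3, 11.6 and 16.6 CPM in DS hybrid High (H2, H6, H8), against 16.4, 7.25 and 7.79 CPM in DS hybrid Low (L1, L4, L7). In DSxDS it had 36.5, 31.9 and 11.8 CPM at High (H3, H5, H9), against 4.93, 6.83 and 14.0 CPM at Low (L3, L5, L8). In RRxRR it had 39.7, 38.4 and 43.0 CPM at High (H1, H4, H7), against 15.1, 5.04 and 5.87 CPM at Low (L2, L6, L9). High and Low tanks overlapped in DS hybrid and DSxDS and not in RRxRR. k86:844159 had 4.50 CPM in H9, the lowest High tank, against 4.73 CPM in L8 of the same type.

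Among the 12 that fell, 4 were of set B, and the set's count was 2 without L3 and 2 without both L3 and L5. Named among those that fell are k94:1400000 and k62:2028464. k94:1400000 had a log2 fold change of -1.69 ± 0.47 (SE, edgeR adjusted p = 0.0242), which missed the threshold without H5 (adjusted p = 0.0518). k62:2028464 had -1.56 ± 0.41 (adjusted p = 0.0161), which missed it without L3 and L5 (adjusted p = 0.0676). It had 13.1, 5.83 and 5.52 CPM in DS hybrid High, against 8.04, 44.6 and 28.0 CPM in DS hybrid Low, so H2 lay above L1.

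**Figure D5:**
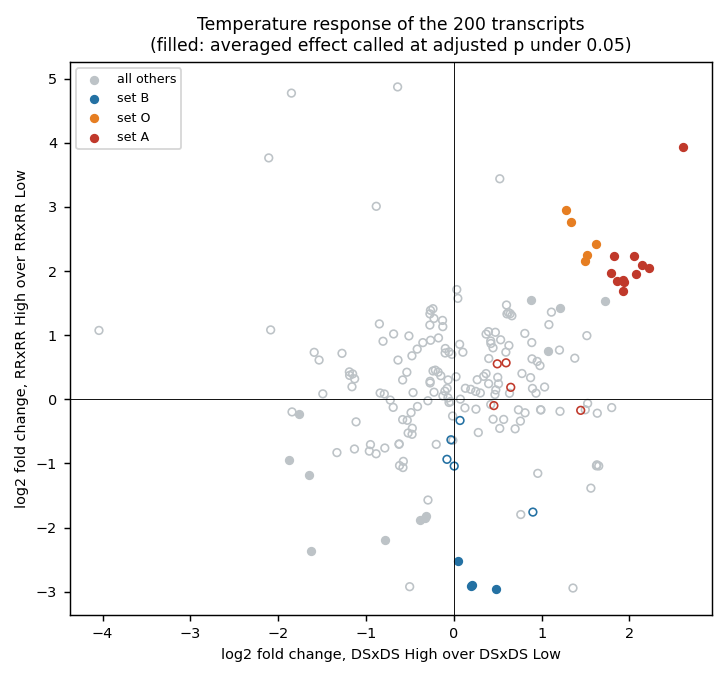
Log2 fold change of the 200 transcripts between High and Low, in DSxDS (x axis) and in RRxRR (y axis); filled points were called for the effect averaged over the 3 types (edgeR, adjusted p under 0.05). The 11 called members of set A and the 5 of set O lie high in both types, and the 4 called members of set B are low in RRxRR.

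Within RRxRR, 19 members (9.5%) were called, against 6.09% of all transcripts tested, with 14 that rose (background 3.75%) and 5 that fell (2.34%). The count was 4 without L6, 4 without L9, 5 without H4, 8 without H7, 10 without L2 and 12 without H1. The calls over all transcripts fell as well, to 3468 without L6, 3803 without L9 and 3415 without H4, against 5892 with all libraries. Without L3 and L5 there were 11 members and 7430 calls in all. Set A gave 10 of the 14 that rose, and 1 of these, k86:583648, was called under every alternative. The set's count was 1 without H7, L6 or L9, 2 without L2 or without L3 and L5, and 3 without H4. For k86:583648 the log2 fold change was 3.93 ± 0.45 (SE, edgeR adjusted p = 7.9e-05). Next of those that rose was k90:1946573 of set O with 2.96 ± 0.67 (adjusted p = 0.0203), not called without H1, L6 or L9.

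All 4 members of set B that were called in RRxRR fell, and none was called there without H1 or without H4. k90:1938705 had 2.28, 1.07 and 5.21 CPM in RRxRR High (H1, H4, H7), against 23.5, 30 and 16.3 CPM in RRxRR Low (L2, L6, L9). k86:830949 had 2.22, 1.5 and 4.90 CPM in RRxRR High, against 21.1, 29.9 and 17.2 CPM in RRxRR Low. Neither overlapped between temperatures in RRxRR. Their log2 fold changes were -2.96 ± 0.70 (adjusted p = 0.0244) and -2.91 ± 0.62 (adjusted p = 0.0131). The call of k90:1938705 was also lost without L2 or L6. In DSxDS, where the median over set B was 0.07, k90:1938705 had 9.17, 15.5 and 2.69 CPM at High, against 9.22, 3.37 and 5.86 CPM at Low, with overlap. No test of DSxDS against RRxRR was made for that response.

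Within DSxDS, 13 members (6.5%) were called, against 12.8% of all transcripts tested, with 12 that rose (background 5.64%) and 1 that fell (7.2%). Set A gave 11 of the 12, but 5 without L8 and 1 without L3 or without H9. The count of members was 1 without L3, 3 without H9 and 9 without L5. The calls over all transcripts were 6021 without L3, 9717 without H9 and 9003 without L5, against 12430 with all libraries. Without both L3 and L5, where DSxDS Low is L8 alone, 0 members and 2771 transcripts were called. At High, k86:340375 had 30.2, 38.0 and 89.4 CPM (H3, H5, H9), against 10.2, 10.9 and 9.94 CPM at Low (L3, L5, L8), with no overlap. Its log2 fold change was 2.23 ± 0.51 (SE, edgeR adjusted p = 0.0119), while k86:583648 had 2.61 ± 0.42 (adjusted p = 0.0014). The one that fell, k50:2883456, had 4.52, 5.83 and 5.06 CPM at High, against 18.2, 15.5 and 15 CPM at Low, and a log2 fold change of -1.76 ± 0.45 (adjusted p = 0.0205). With L8 as the only DSxDS Low library, none of the 3 was called, at log2 fold changes of 2.87 for k86:583648 (adjusted p = 0.0695), 2.14 for k86:340375 (adjusted p = 0.268) and -1.79 for k50:2883456 (adjusted p = 0.191), near those with all libraries. The call of k86:340375 was also lost without L3 or H9 alone, and that of k50:2883456 without L3, H3, H5 or H9 alone.

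Within DS hybrid, 1 member (0.5%) was called, against 2.95% of all transcripts tested (1.77% rose and 1.18% fell). It was again k50:2883456, which fell, with 1.44, 4.61 and 3.13 CPM at High (H2, H6, H8), against 10.3, 13.2 and 7.29 CPM at Low (L1, L4, L7). Its log2 fold change there was -1.85 ± 0.46 (SE, edgeR adjusted p = 0.0460), and 10 of 25 alternatives kept the call. In DS hybrid, edgeR called 0 members of set A with all libraries, 0 to 1 when 1 library was left out, and 1 with a mean of at least 50 reads; limma-voom called 1 and DESeq2 3. There the set's median log2 fold change was 0.86, against 1.89 in DSxDS and 1.85 in RRxRR. Whether the temperature effect on set A differed between types was not tested.

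DS hybrid differed from RRxRR in 28 members (14%), against 45.7% of all transcripts tested, with 14 higher and 14 lower in DS hybrid. Among the higher was k54:2683373, with a log2 fold change of 4.99 ± 1.21 (SE, edgeR adjusted p = 0.0048). The size of this change rested on H2, with 1342 CPM against 3.80 to 34.5 CPM in the other DS hybrid tanks and 2.33 to 4.10 CPM in RRxRR. Without H2 the log2 fold change was 1.83 and the call stayed (adjusted p = 0.0042). k58:1834359 had 41.0, 26.5 and 47.9 CPM in DS hybrid High and 14.5, 29.5 and 52.8 CPM in DS hybrid Low, against 17.7, 7.36 and 1.27 CPM in RRxRR High and 3.42, 14.8 and 2.95 CPM in RRxRR Low. L1 of DS hybrid lay below H1 and L6 of RRxRR, and the log2 fold change was 2.28 ± 0.74 (adjusted p = 0.0238), lost without H4, L2, L9 or L7.

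Lower in DS hybrid was k82:1073291, with a log2 fold change of -2.72 ± 0.61 (SE, edgeR adjusted p = 0.0028), called under each of 25 alternatives. It had 1.27, 6.93 and 2.43 CPM in DS hybrid High and 2.60, 3.69 and 1.04 CPM in DS hybrid Low, against 17.0, 38.7 and 21.4 CPM in RRxRR High and 28.9, 16.2 and 3.61 CPM in RRxRR Low. Only L9 of RRxRR lay within the DS hybrid range. k78:811893 had 5.24 to 226 CPM in DS hybrid, against 125 to 393 CPM in RRxRR, and a log2 fold change of -2.60 ± 0.95 (adjusted p = 0.0398) that 15 of 25 alternatives kept.

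At High, DS hybrid differed from DSxDS in 13 members (6.5%), against 29.5% of all transcripts tested, with 4 higher and 9 lower in DS hybrid; without H2 the count was 7 and without H5 it was 8. This contrast and the one against RRxRR share the DS hybrid High tanks. Among the higher were k54:2683373 and k58:1824377, with log2 fold changes of 7.53 ± 1.91 (SE, edgeR adjusted p = 0.0108) and 6.15 ± 2.14 (adjusted p = 0.0474). Both rested on H2, at 1342 and 1653 CPM. Without it the log2 fold changes were 1.21 (adjusted p = 0.189) and 0.45 (adjusted p = 0.851). k74:1446001 had 25.1, 19.5 and 2.61 CPM in DS hybrid High, against 162, 205 and 198 CPM in DSxDS High, with no overlap and a log2 fold change of -3.51 ± 1.06 (adjusted p = 0.0254) that was not called without H6 or H8. k86:340375 of set A was lower in DS hybrid High by a log2 fold change of -1.75 ± 0.50 (adjusted p = 0.0177), and H8 of DS hybrid came near H3 of DSxDS, with 26.5 against 30.2 CPM. That call was lost without H2, H6 or H9. Set A gave 4 of the 9 lower members, k86:583648 among them with a log2 fold change of -1.71 ± 0.41 (adjusted p = 0.0060).

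Between DSxDS and RRxRR at High, edgeR called 0 members, against 0.281% of all transcripts tested (0.151% higher and 0.13% lower in DSxDS). At an unadjusted p under 0.05 there were 11 members (5.5%), against 8.94% of all transcripts tested. DESeq2 called 1 member and 821 transcripts in all, and limma-voom 0 members and 200 transcripts in all. The median absolute log2 fold change of the members was 0.58, against 0.22 for all transcripts tested, with median SEs of 0.60 and 0.29.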

How the data were processed

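Liver RNA-seq libraries of 18 tank pools were used. The authors deposited raw read counts per assembled transcript, 1 column per library, and a normalized table that was not used here. Per the submitters' processing notes, the tools were R 3.1.0, DESeq 1.12.1 and Bowtie2 2.1.0; the notes as seen here state no roles. Strand use, assembler, counting tool and handling of multiply mapping reads were not given in the sources used here. Transcripts that share sequence may share or split reads. The row without a transcript name (24.2% to 25.6% of a library) entered neither library sizes nor tests.

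CPM, spreads, correlations and sets were computed from the deposited counts with numpy 2.4.6, pandas 2.3.3 and scipy 1.17.1. Differences were tested with edgeR 4.0.16 in R 4.3.3 (quasi-likelihood, robust, TMM scaling, 1 mean per group over all 18 libraries). After filterByExpr (minimum count 10, minimum total 15), 96799 transcripts were tested, and p-values were Benjamini-Hochberg adjusted over all of these. SEs were taken from the F statistic. Alternatives used limma 3.58.1 (voom) and DESeq2 1.42.0, other filters and scalings, and each library left out.

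Named were the 3 members of largest spread, the 2 nearest to each set's mean, and per contrast at most 2 called members that rose and 2 that fell, of the largest change, where log2 CPM averaged at least 3. Ranks 199 to 202 were also named. k50:2878665, and the members compared by level within a set, were named after their values were seen. The members and lists were chosen with earlier results of these data known. Lists of liver, blood and heat-shock genes were not applied, since 0 identifiers matched the 32344 genes of the Coco_2.0 reference. Each p-value sets a difference of group means against the spread between tank pools, estimated over all groups and moderated across transcripts. The 18 pairs of libraries within groups gave a chi-square of 9.58 to 46.2 per degree of freedom, so none agreed within sampling noise.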

Additional observations from a re-analysis of the deposited data

Results flagged for a closer look

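The row of the count table that names no transcript, which no comparison used, held a median of 24.85% of a library's reads. Its share ran from 24.2% in H9 to 25.6% in L4. What these reads were was not tested.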

How the results depend on the processing

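Members called in each contrast, main value first, ranged as follows when 1 library was left out. The averaged temperature effect had 32 (29 to 40), temperature in RRxRR 19 (4 to 23), in DSxDS 13 (1 to 14) and in DS hybrid 1 (0 to 2). DS hybrid against RRxRR had 28 (19 to 32), DS hybrid against DSxDS at High 13 (7 to 18), and DSxDS against RRxRR at High 0 (0 to 0). DESeq2 called 32 members for temperature in RRxRR, 20 in DSxDS, 10 in DS hybrid, 26 for DS hybrid against DSxDS and 1 for DSxDS against RRxRR. With limma-voom, DS hybrid against DSxDS gave 21 and temperature in DS hybrid 3, as did a mean of at least 50 reads. With no filter beyond 1 read, temperature in RRxRR gave 11 and in DS hybrid 0. Without L3 and L5, temperature in RRxRR gave 11, in DSxDS 0 (Low then being L8 alone) and in DS hybrid 0. No log2 fold change of a named call changed sign. Of the 200 members, 35 stayed in the top 200 with at least 5 CPM everywhere (all that had such levels), 37 with a mean of at least 1 CPM and log2(CPM + 0.1), 133 by the mean of the SDs, 128 without RRxRR High, and 138 to 177 without single libraries. TMM scaling kept 168, log2(CPM + 1) 153, and use of all 6 groups 147. Members in sets numbered 100, or 164 at a limit of 0.5, and 86 to 124 without single libraries; the largest set of 16 then had 15 to 21. The median SD in DSxDS Low, 0.701, was 0.719 with TMM scaling and 0.614 with log2(CPM + 1). Except where stated, causes were not tested. No 2 groups share a library code, but each run of 3 consecutive codes held 1 tank of every type, and such runs were fitted as a replicate block within each temperature, chosen after seeing the data. Over all ranked transcripts, deviations from the group means correlated above 0.1 in 3 of 18 pairs of libraries within a run. Of pairs from different runs, 2 of 36 did. The median correlations were 0.041 within a run and -0.024 between runs. Deviations of the 3 tanks of a group sum to 0, so correlations within and between runs are not independent of each other. Over the 200 members, 9 of 18 pairs within a run and 7 of 36 between runs passed 0.1, with medians of 0.083 and -0.022. Whether the tanks of a run varied together was not tested further. With the block, temperature in DS hybrid gave 6 members, 5 of them of set A, and the other contrasts stayed within 1.5 times the counts above. k94:1400000 (averaged temperature), k90:1938705 (RRxRR), k58:1834359, k54:2683373 and k58:1824377 (DS hybrid contrasts) were then not called. With 3 tanks a group, an SD is itself imprecise, and depth limited only the lowest members.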
